A study of Mus musculus with 13 samples.

Results

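The 4 Inhibitor of DNA binding genes of the mouse, Id1, Id2, Id3 and Id4, were examined for SMAD3 and OCT4 binding. They were taken by symbol from the 21951 protein-coding genes of the GENCODE vM21 annotation. For each gene, every ChIP-seq peak that shared at least 1 bp with the gene span plus 10 kb on each side, called the locus below, was collected with and without doxycycline (dox). Proteins of the ID family carry a helix-loop-helix domain but no basic DNA-binding region. They pair with E proteins and other basic helix-loop-helix factors and keep these partners off DNA, and they are known for holding progenitor cells in a proliferating, undifferentiated state. Id1, Id2 and Id3 are classical direct targets of BMP signaling through SMAD1/5 and SMAD4, and TGF-β signaling through SMAD3 raises or lowers their expression depending on the cell. SMAD3 is the TGF-β/activin arm's DNA-binding effector, and OCT4 is a core pluripotency factor.

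All samples were mouse embryonic fibroblasts (MEFs) on day 3 in which dox switches on MKOS, a cassette of c-Myc, Klf4, Oct4 and Sox2. All of them received, by retrovirus, Smad3CA, a constitutively active SMAD3, so the cells without dox also expressed Smad3CA. Per the methods of the study, the MEFs came from pooled male and female embryos of one mouse line, TNG MKOS, of mixed genetic background. The line carries the MKOS-ires-mOrange cassette with a CAG promoter-driven rtTA at 1 allele of Sp3 and a GFP reporter that disrupts 1 allele of Nanog. In cells given 1 µg/ml dox (Dox+, the labels' value, where the general methods name a lower dose), OCT4 (n = 3) and SMAD3 (n = 3) were immunoprecipitated, and in cells without dox (Dox-), SMAD3 (n = 3). The culture medium was ESC medium with LIF, and 2 input DNA samples were sequenced from each condition. The labels do not say whether replicates were separate cultures, so p-values here measure only the spread between these samples, which may be technical. No RNA was measured, so neither the expression of the Id genes nor marker genes of the fibroblasts can be read from these data. SMAD3 signal in cells with Smad3CA may come from the transgene product or the cells' own SMAD3, which cannot be told apart.

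Depth was low. Genome coverage of the pooled replicates was 0.490-fold in OCT4, 0.599-fold in SMAD3 Dox+ and 0.455-fold in SMAD3 Dox- samples. The peak lists of single replicates differed widely in length, from 420 to 23981 SMAD3 peaks and from 102 to 1181 OCT4 regions, and replicate 1 gave the shortest SMAD3 list in both conditions. The locus lengths were 21160 bp for Id1, 23342 bp for Id2, 22259 bp for Id3 and 24799 bp for Id4, against a median of 37403 bp over all protein-coding genes, and no protein-coding gene other than the Id gene lay in any of them.

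The sequences under the SMAD3 peaks are given first, since the binding results refer to them. They are shown 5′ to 3′ on the strand of the gene, in lower case, and capitals mark any of the 6 motifs searched on both strands. These were the GC-rich BMP SMAD site GGCGCC, the SMAD half-site CAGAC, the SMAD palindrome GTCTAGAC, the octamer ATGCAAAT bound by OCT4, the MYC E-box CACGTG and the KLF motif GGGNGTGG. The RefSeq promoter table for the GRCm38 assembly (mm10) held 3 of the 4 genes, all but Id1. The first pair of sequences are the 250 bases before the RefSeq start of Id4 (chr13:48260866-48261115, + strand), which lie under the promoter peak of that gene, and the part of the Id2 promoter that is outside annotated untranslated exons (chr12:25096254-25096342, - strand), which lies under the internal promoter peak of Id2.
Id4 promoter: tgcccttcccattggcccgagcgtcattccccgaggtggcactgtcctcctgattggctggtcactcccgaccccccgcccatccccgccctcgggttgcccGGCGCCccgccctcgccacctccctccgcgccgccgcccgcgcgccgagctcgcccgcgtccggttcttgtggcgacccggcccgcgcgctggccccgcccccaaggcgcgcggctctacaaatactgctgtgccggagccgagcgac
Id2 promoter: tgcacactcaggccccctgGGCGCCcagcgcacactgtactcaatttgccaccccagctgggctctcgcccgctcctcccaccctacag

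Each of these promoters held GGCGCC, which 9.59% of the 32851 promoter windows in the table held in the 250 bases before the start. The third promoter, that of Id3, had no GGCGCC but held CAGAC 2 times and the KLF motif 1 time, motifs found in 42.2% and 15.9% of promoter windows. No palindrome, octamer or MYC E-box was found in the 3 promoters.

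The next 5 sequences are the central 300 bases of merged Dox+ SMAD3 peaks outside the genes, chosen because they cover the 3 merged peaks called only with dox, 1 at Id2 (chr12:25092840-25093139) and 2 at Id1 (chr2:152727004-152727303 and chr2:152728239-152728538), and the 2 peaks upstream of Id3 (chr4:136134986-136135285 and chr4:136140406-136140705).
Id2 downstream: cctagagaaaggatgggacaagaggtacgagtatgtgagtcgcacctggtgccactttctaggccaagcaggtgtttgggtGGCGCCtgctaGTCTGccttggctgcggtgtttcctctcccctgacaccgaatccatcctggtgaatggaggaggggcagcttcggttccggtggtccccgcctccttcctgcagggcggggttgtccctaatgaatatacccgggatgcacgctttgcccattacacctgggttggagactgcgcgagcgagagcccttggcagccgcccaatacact
Id1 upstream, first peak: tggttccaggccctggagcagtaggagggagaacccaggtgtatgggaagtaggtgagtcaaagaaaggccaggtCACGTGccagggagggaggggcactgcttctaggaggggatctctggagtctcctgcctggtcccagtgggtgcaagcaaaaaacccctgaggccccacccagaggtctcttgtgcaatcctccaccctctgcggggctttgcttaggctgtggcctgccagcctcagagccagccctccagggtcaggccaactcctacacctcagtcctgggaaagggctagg
Id1 upstream, second peak: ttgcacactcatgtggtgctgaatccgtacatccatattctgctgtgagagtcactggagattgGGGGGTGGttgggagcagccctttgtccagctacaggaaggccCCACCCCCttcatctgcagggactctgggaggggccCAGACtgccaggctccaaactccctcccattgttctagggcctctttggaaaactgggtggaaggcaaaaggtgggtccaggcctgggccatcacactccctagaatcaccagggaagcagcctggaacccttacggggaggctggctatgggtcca
Id3 far upstream: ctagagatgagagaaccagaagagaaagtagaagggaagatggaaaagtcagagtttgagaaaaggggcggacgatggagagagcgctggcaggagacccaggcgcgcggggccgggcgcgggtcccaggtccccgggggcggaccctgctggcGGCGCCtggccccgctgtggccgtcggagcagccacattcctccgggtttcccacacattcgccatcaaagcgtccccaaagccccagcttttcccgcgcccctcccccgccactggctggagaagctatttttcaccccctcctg
Id3 near upstream: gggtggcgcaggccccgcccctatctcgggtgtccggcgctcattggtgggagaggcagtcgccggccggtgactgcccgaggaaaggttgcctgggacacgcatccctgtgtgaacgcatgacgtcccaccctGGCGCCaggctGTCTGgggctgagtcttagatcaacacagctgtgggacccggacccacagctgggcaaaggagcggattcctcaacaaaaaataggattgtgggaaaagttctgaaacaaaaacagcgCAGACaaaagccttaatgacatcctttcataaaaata

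The Id2 downstream window held GGCGCC followed within a few bases by the half-site on the other strand, and the near upstream window of Id3 held the same neighbours. Of the Id1 upstream windows, the first held the MYC E-box and the second the KLF motif 2 times and the half-site 1 time. Of the central windows of all 12 merged Dox+ peaks at the Id genes, 5 held GGCGCC, against 24.0% of the 9533 merged Dox+ peaks long enough to be searched. The half-site was in 5 of the 12, against 46.4% of windows. The KLF motif, the MYC E-box and the octamer were each in 1 of the 12, against 21.6%, 8.16% and 1.01%. The octamer lay in the Id3 gene peak, and the palindrome was in 0 of the 12 and in 0.336% of all windows. A match of letters is not a binding site.

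All 4 Id genes had SMAD3 peaks with and without dox, and none had an OCT4 peak. In the merged lists, called by the authors on the pooled replicates, 4 of 4 genes had a Dox+ SMAD3 peak in the locus, as did 52.5% of protein-coding genes, and 4 of 4 had a Dox- SMAD3 peak, as did 47.9%. A merged peak lay over an annotated transcript start of the gene itself in 4 of 4 genes with dox, against 38.5% of protein-coding genes, and in 4 of 4 without dox, against 33.3%. In the replicate lists without dox, a peak over a start of Id3 or Id4 was found in replicate 2 alone. The Id3 peaks of Dox- replicates 1 and 3 lay 1249 and 1195 bp from its nearest start. With 4 genes, the counts in the merged lists are a description. The loci held 12 merged Dox+ peaks (5 at Id1, 3 at Id2, 3 at Id3 and 1 at Id4) and 9 merged Dox- peaks (3, 2, 3 and 1). All 9 Dox- peaks were overlapped by a Dox+ peak, and 9 of the 12 Dox+ peaks by a Dox- peak. The other 3 Dox+ peaks, 2 at Id1 and 1 at Id2, had no Dox- partner. At Id4 the Dox- peak was found in 1 replicate list only, so 3 of 4 genes had a merged Dox- peak with at least 2 replicate lists behind it, against 4 of 4 for Dox+, and only Id2 and Id3 had a merged Dox- peak with a −log10 q-value of at least 2.

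**Figure D1:**
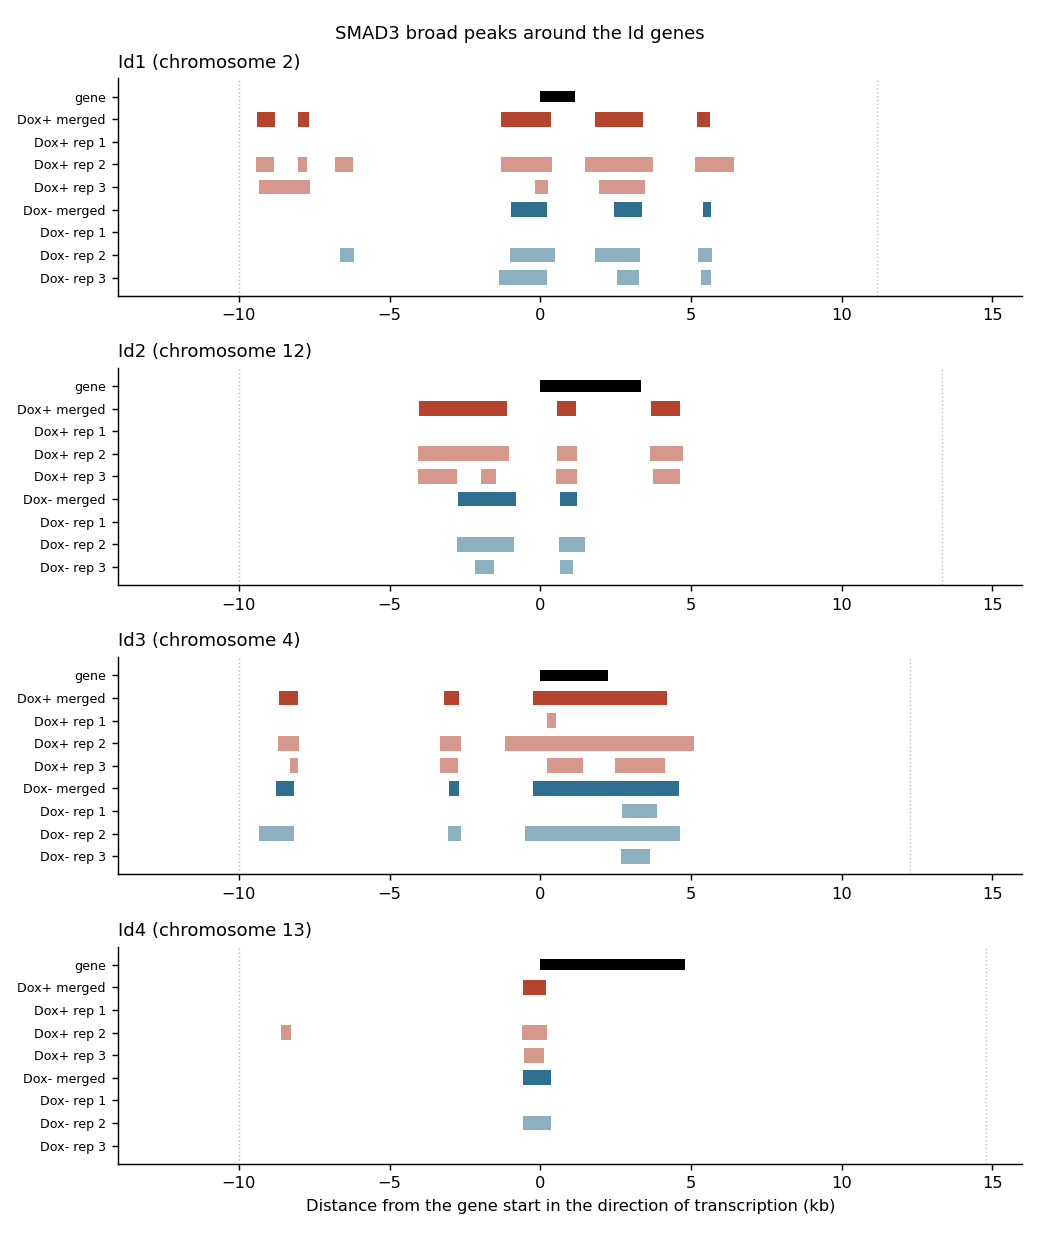
SMAD3 broad peaks in the locus of each Id gene. The x axis is the distance from the gene start in kb, positive in the direction of transcription, the black bar is the gene, dotted lines are the ends of the locus, and each row is the merged list or 1 replicate list of Dox+ (red) or Dox- (blue). Peaks lie at the gene starts in both conditions, and Dox+ alone has peaks at the left end of Id1 and to the right of Id2.

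The share of each locus covered by SMAD3 peaks was compared between conditions over replicate lists. At Id1 it was 0%, 31.8% and 17.3% in Dox+ replicates 1, 2 and 3, and 0%, 18.5% and 12.5% in Dox- replicates 1, 2 and 3. Replicate 1 had no peak there in either condition, and the groups overlapped (16.4 ± 15.9% against 10.3 ± 9.44%, SD, n = 3, exact two-sided permutation test p = 0.700). At Id2 it was 0%, 20.4% and 14.6% in Dox+ and 0%, 11.8% and 4.65% in Dox-, and again replicate 1 had none and the groups overlapped (11.7 ± 10.5% against 5.48 ± 5.94%, SD, n = 3, exact permutation p = 0.500). At Id3 it was 1.32%, 34.5% and 16.7% in Dox+ and 5.21%, 30.4% and 4.42% in Dox-, with a peak in every list (17.5 ± 16.6% against 13.4 ± 14.8%, SD, n = 3, exact permutation p = 0.700). At Id4 it was 0%, 4.81% and 2.62% in Dox+ and 0%, 3.75% and 0% in Dox- (2.48 ± 2.41% against 1.25 ± 2.16%, SD, n = 3, exact permutation p = 0.700). The mean was higher with dox at each gene, by 6.03, 6.18, 4.15 and 1.23 percentage points at Id1, Id2, Id3 and Id4, but the groups overlapped at all 4. Each difference was smaller than both groups' SD except at Id2, where it was below the Dox+ SD and slightly above the Dox- SD, and at no gene did it pass the test. Without Dox+ replicate 2, the library with the longest list, the difference was -1.68 at Id1 and -4.33 at Id3, and without Dox- replicate 3 it was -0.319 at Id3, so the direction at these 2 genes rested on single libraries. The smallest p that 3 against 3 lists allow is 0.100, and p-values were not adjusted. The share of the genome covered moved with these values, at 0.00450%, 0.630% and 0.273% in Dox+ and 0.0279%, 0.495% and 0.0787% in Dox- for replicates 1, 2 and 3, and its part in the differences was not tested beyond the scaling given in the closing section.

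**Figure D2:**
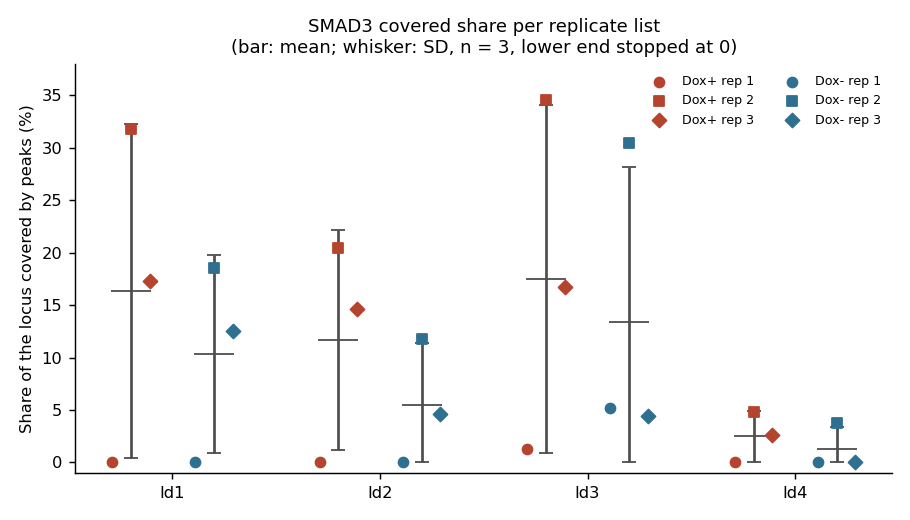
Percent of each Id locus covered by SMAD3 peaks (y axis) in each replicate list of Dox+ (red) and Dox- (blue), with mean and SD (n = 3). Replicate 2 is the highest of its group at every gene, and the groups overlap at every gene.

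In order of mean coverage with dox the genes were Id3, Id1, Id2 and Id4. All were read from the same libraries, so the SD over libraries does not measure the spread between genes. List by list, Id4 was below Id2 wherever either was covered. The shares were 4.81% against 20.4% and 2.62% against 14.6% in Dox+ replicates 2 and 3. For Dox- replicates 2 and 3 they were 3.75% against 11.8% and 0% against 4.65%. Id3 was below Id1 in replicate 3 of both conditions. In each list that covered Id1, Id2 or Id3, these genes had a larger covered share than 96.6 to 99.9% of protein-coding genes, while Id4 exceeded 83.5 to 83.7% in the 3 lists that covered it. Genes without a peak count as lower in these ranks, so any peak ranks high in a short list. A peak was present at 2.57%, 62.9% and 47.0% of genes in Dox+ replicates 1, 2 and 3. In Dox- replicates 1, 2 and 3 it was present at 10.8%, 56.2% and 22.2%. Locus length, by which the covered share is divided, was under the median for all 4 genes, and its part in these ranks was not tested. Peaks were present in 4 of the 6 SMAD3 replicate lists at Id1, in 4 at Id2, in 6 at Id3 and in 3 at Id4. A peak in at least 4 lists was found at 23.0% of protein-coding genes and a peak in all 6 at 1.05%.

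Joining the overlapping peaks of the 6 replicate lists gave 13 regions at the Id genes, of which 12 were in at least 2 lists. Of these 12, 10 were in lists of both conditions, 2 were in both longer Dox+ lists and no Dox- list, and 0 were in 2 or more Dox- lists without a Dox+ one. Over all 13217 such regions of the genome the last 2 kinds made up 13.3% and 2.32%. Of the 12 regions at the Id genes, 1 was in all 6 lists, against 0.961% of the 13217. This region, at Id3, joins peaks that do not all overlap, and no base of it was covered in all 6 lists.

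At Id1 (ENSMUSG00000042745.9, chr2:152736251-152737410, + strand), SMAD3 peaks lay at the promoter, downstream and upstream. The merged promoter peak ran from the upstream side into the first exon (chr2:152734938-152736619) with a fold enrichment over input of 2.06 in Dox+, and its Dox- partner had 2.26. Replicates 2 and 3 had fold enrichments of 2.19 and 2.18 in Dox+ and 2.03 and 2.44 in Dox-, so the values of the 2 conditions overlapped. The downstream peak, 662 bp past the gene end (chr2:152738073-152739661), had 2.67 in Dox+ and 2.29 in Dox-, with 2.15 and 2.45 in Dox+ replicates 2 and 3 and 2.06 and 1.83 in Dox- replicates 2 and 3. A smaller peak near the pseudogene Gm14162, 4055 bp past the end of Id1, had 2.12 in Dox+ and 2.06 in Dox- in the merged lists. Its replicate values had the opposite order, with 1.89 in Dox+ replicate 2 and 2.17 and 2.31 in Dox- replicates 2 and 3. An upstream region centered at -6489 bp (chr2:152729448-152730075) was found in both conditions. It had 3.04 in Dox+ replicate 2 and 2.44 in Dox- replicate 2, and no peak in the merged lists.

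The far upstream region of Id1 (chr2:152726812-152728619) was found only with dox. It had a fold enrichment of 3.67 in Dox+ replicate 2 and 2.39 in Dox+ replicate 3, and no peak in Dox+ replicate 1 or in any Dox- list. Its center was at -8535 bp from the Id1 start, between genes, with Id1 as the nearest annotated start. In the authors' table of differential binding its mean log2 concentration was 4.50 in Dox+ and 2.15 in Dox- (the authors' means, with no value per replicate). It was the 1 region among the 12 at the Id genes that this table listed, with 8.90% of the 13217 regions listed as higher in Dox+. No Id region was listed as higher in Dox-, as 6.84% of all regions were. The table lists only regions past a false discovery rate of 0.1 and an absolute log2 fold of 1, so for the other 11 regions no difference can be given. In the merged list this region was split into 2 peaks with modest fold enrichments of 1.88 and 2.09, which ranked at 79.3% and 83.9% of the list by q-value.

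Id2 (ENSMUSG00000020644.9, chr12:25093799-25097140, - strand) carried the strongest merged peak of the family. This downstream peak, 337 bp past the gene end (chr12:25092518-25093461), had a fold enrichment of 5.67 and a −log10 q-value of 11.0 in the merged Dox+ list and ranked 209 of 12576 peaks by q-value. It was in Dox+ replicates 2 and 3, with 3.06 and 2.18, and in no Dox- list, although the table of Dox+ against Dox- did not list it. The merged value was above both replicate values, and in Dox+ replicate 3 the peak ranked at 76.0% of the list by q-value. The peak over the promoter used by the RefSeq transcript (chr12:25095940-25096580) had 2.89 in Dox+ and 1.93 in Dox-. In single lists it had 2.14 and 4.58 in Dox+ replicates 2 and 3 and 2.19 and 2.33 in Dox- replicates 2 and 3, so the lowest value was a Dox+ one and the conditions overlapped. The upstream peak (chr12:25098235-25101167) covered 2933 bp with 2.84 in Dox+ and 1918 bp with 2.97 in Dox-.

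At Id3 (ENSMUSG00000007872.3, chr4:136143497-136145755, + strand) a broad peak spanned the whole gene in both conditions. It was 4439 bp long with a fold enrichment of 2.42 in the merged Dox+ list (chr4:136143266-136147704) and 4826 bp long with 2.70 in the merged Dox- list. The region was in all 6 replicate lists, with 2.42, 2.27 and 2.22 in Dox+ replicates 1, 2 and 3 and 2.56, 2.40 and 1.54 in Dox- replicates 1, 2 and 3. These values overlapped between conditions. The lists did not mark the same stretch of it: the peak of Dox+ replicate 1 lay inside the gene, while the peaks of Dox- replicates 1 and 3 lay 467 and 413 bp past the gene end. Within the gene span alone the covered share differed by 21.9 percentage points (higher in Dox+, exact permutation p = 0.600, n = 3), still without passing the test. The gene span is 2259 bp and the locus 22259 bp, so these points cannot be set beside the 4.15 points of the whole locus. The covered length was less even, from 294 bp in Dox+ replicate 1 to 6289 bp in Dox+ replicate 2. The far upstream peak (chr4:136134822-136135450), whose nearest annotated start was that of the small nuclear RNA gene Gm26001, had 4.24 and 2.49 in Dox+ replicates 2 and 3 and 3.30 in Dox- replicate 2. The near upstream peak (chr4:136140294-136140817) had 1.90 and 1.47 in Dox+ replicates 2 and 3 and 4.24 in Dox- replicate 2. Id3 had no merged peak limited to Dox+, and it was the only Id gene with no row in either table of differential binding.

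Id4 (ENSMUSG00000021379.2, chr13:48261228-48266026, + strand) had a single narrow focus at its promoter. The merged peak (chr13:48260643-48261424, over the start of Id4 and within introns of the noncoding genes A330033J07Rik and Gm49291) had a fold enrichment of 4.16 with dox and ranked 339 of 12576 by q-value, the upper 2.70% of the list. Without dox the merged peak had 2.12 and ranked in the upper 58.9%. In replicate lists it had 2.87 and 7.08 in Dox+ replicates 2 and 3 and 1.83 in Dox- replicate 2, and no peak in the other 3 lists. The Dox+ values were both above the 1 Dox- value, but lists without a peak give no fold, and the Dox+ against Dox- table did not list this region. A further peak centered at -8429 bp, with 5.18, was found in Dox+ replicate 2 alone.

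**Figure D3:**
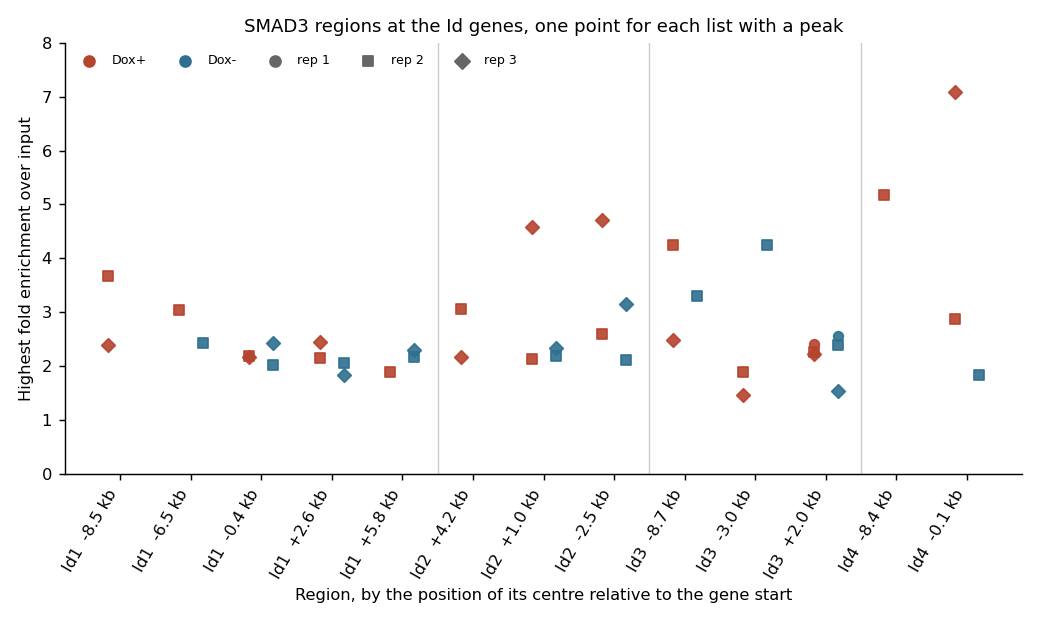
Highest SMAD3 fold enrichment over input (y axis, linear) of the 13 regions at the Id genes (x axis, by the distance of the region's center from the gene start in kb), with 1 point for each replicate list that holds a peak. The Id4 promoter in Dox+ replicate 3 is the highest at 7.08, and most other regions lie between 1.5 and 3.5 with red and blue points mixed.

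No OCT4 peak was found in the locus of any Id gene, in the merged list or in any of the 3 replicate lists, while 4.85% of protein-coding genes had a merged OCT4 peak. The count stayed 0 when the locus was extended to 50 kb on each side. The nearest merged OCT4 peak was 611 kb from Id1 (in an intron of Asxl1), 319 kb from Id2, 172 kb from Id3 (in an intron of Hnrnpr) and 130 kb from Id4. At a pooled OCT4 coverage of 0.490, no peak was called at these genes, which does not show that OCT4 was absent. The part of depth in this was not tested.

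The table that compared OCT4 with SMAD3 in Dox+ cells held 3 rows at the Id genes, among 10 regions there that were in at least 2 lists. At the Id2 internal promoter (chr12:25095905-25096626) the authors' mean log2 concentration was 1.12 for OCT4 and 3.75 for SMAD3, and at the Id4 promoter (chr13:48260612-48261452) it was 1.83 for OCT4 and 3.50 for SMAD3. Both were listed as higher in SMAD3, as were 6.64% of the 9903 regions of this comparison. The values of OCT4 and SMAD3 come from different antibodies, so their order does not show which factor was more bound. At the Id2 downstream region (chr12:25092417-25093485) the order was the opposite, with 4.24 for OCT4 and 2.88 for SMAD3, and 13.6% of all regions were listed as higher in OCT4. No OCT4 peak was called in this region, the one with the strongest merged SMAD3 peak of the family, and the value for OCT4 has no replicates to set beside it. The GGCGCC and half-site match printed above for Id2 downstream lies in the center of the merged SMAD3 peak, and no octamer was found in those 300 bases.

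**Figure D4:**
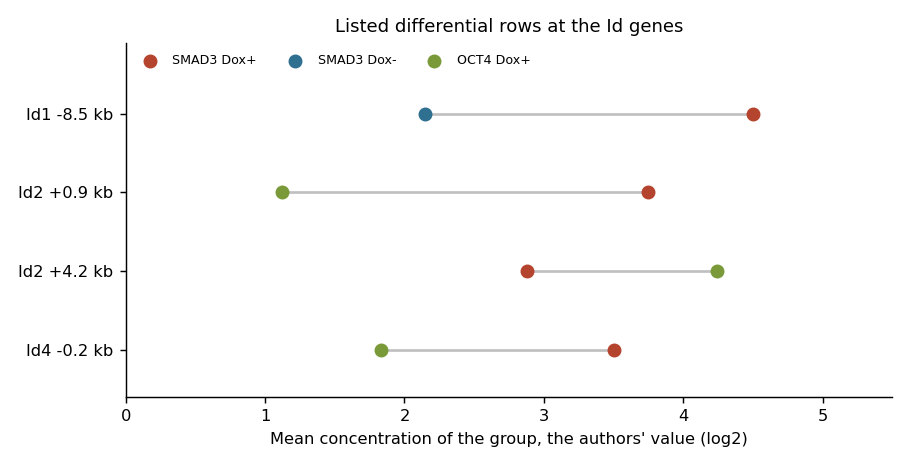
Group means of log2 concentration (x axis, the authors' values) for the 4 rows at the Id genes in the tables of differential binding, labelled by gene and distance from its start in kb. SMAD3 Dox+ is red, SMAD3 Dox- blue and OCT4 Dox+ green. The Id1 row has no OCT4 value, and among the rows that have one OCT4 exceeds SMAD3 only at the Id2 downstream region (4.24 against 2.88).

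The partners and regulators of the ID proteins were counted in the same way over 44 genes in 5 lists. A merged SMAD3 peak was present at 33 of the 44 with dox and at 34 without it, with 31 in both, against 52.5% and 47.9% of protein-coding genes. A merged OCT4 peak was present at 3 of the 44, which were Tcf4, Tcf12 and Cdkn2a, against 4.85% of protein-coding genes. The Dox+ against Dox- table listed a region higher in Dox+ at 2 of the genes, Tcf4 and Cdkn1a, and one higher in Dox- at 6, with Tcf4 in both counts. Over all protein-coding genes, 6.64% had a listed region higher in Dox+ in the locus and 3.84% one higher in Dox-, and longer loci hold more regions.

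Among the 8 E proteins and basic helix-loop-helix partners, 7 had a Dox+ and 6 a Dox- SMAD3 peak. The highest merged fold enrichment was 3.37 at Twist2 with dox, a mesenchymal factor, and 2.82 at Hes1 without dox, a Notch target. Both listed regions of Twist2 were nonetheless higher without dox, with authors' means of 1.60 in Dox+ against 3.75 in Dox- and of 2.96 against 4.56. Tcf4, an E protein that ID proteins bind directly, had an OCT4 peak with a fold enrichment of 3.69 and 1 region in each direction, with authors' means of 3.25 in Dox+ against 0.44 in Dox- and of 3.12 against 4.51.

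Of 12 BMP receptors and SMADs, 10 had a Dox+ and 9 a Dox- peak. The highest fold enrichments were at Smad4 (4.43, Dox+), the shared partner of all receptor SMADs, and at the coreceptor Eng (3.80, Dox-). Acvrl1, a type I receptor, had 1 region listed as higher in OCT4 than in SMAD3, while 2 genes of this list had one higher in SMAD3. Over all 44 genes, 3 had a region listed as higher in OCT4 and 6 one higher in SMAD3. The share of all protein-coding genes with such regions was not counted. BMP ligands and antagonists had the fewest, 3 of 11 with dox and 6 of 11 without, with Bmp6 highest at 4.00 and 4.13. The antagonist Fst had a region with a mean of 1.56 in Dox+ and 3.17 in Dox-.

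All 7 feedback regulators had SMAD3 peaks in both conditions, with the highest fold enrichment at Bambi with dox (3.61), a decoy receptor, and at Smad6 without dox (5.44), an inhibitory SMAD. The authors' means were 2.42 in Dox+ and 4.16 in Dox- at Smad6, and 2.80 and 4.51 at Smad7, the other inhibitory SMAD. Ski, a corepressor of SMADs named after its values were seen, had 1.30 and 4.05. No other of the 7 had a region listed in the Dox+ against Dox- table. All 6 cell cycle genes linked to ID proteins had peaks in both conditions, with Ets1 highest with dox (3.75) and Cdkn2a without (5.69). Cdkn1a, which encodes the p21 inhibitor of cyclin-dependent kinases, was listed with 4.43 in Dox+ and 2.93 in Dox-, the same direction as the Id1 upstream region.

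Likeness was taken as the Euclidean distance over the covered shares in the 6 SMAD3 replicate lists, among the 44 genes and the other Id genes. Id1 was closest to Hes1 (10.1 percentage points) and then to Id3 (15.6), and Id3 to Hes1 (13.4) and then to Id1. Id2 was closest to Cdkn1a (8.62) and Smad7 (12.1), and Id4 to Ets2 (1.73) and Atf3 (2.28). The 6 lists differ mainly in length, which all genes share, so these distances describe the libraries as well as the genes.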

How the data were processed

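SMAD3 and OCT4 ChIP-seq peaks were compared at Id1 to Id4 in Dox+ and Dox- MEFs. Per the submitters' processing notes and the methods, reads were trimmed (Trimmomatic 0.36), aligned to mm10 with Bowtie 2, cleaned of duplicates and blacklisted reads, and peaks were called with MACS2 2.1.0 against pooled inputs, for each replicate and for pooled replicates (merged). In the peak lists the authors deposited, fold enrichment is a linear ratio and significance a −log10 q-value, which for broad peaks is an average over the region. The authors' deposited DiffBind 1.16.3 tables give log2 mean concentrations per group, and their fold, p-value and false discovery rate columns were not used. The score in the deposited signal matrices, coverage minus input around OCT4 peaks, was used only for depth, and the planned signal test could not be made because no OCT4 peak lay at an Id gene. Gapped peak lists were not used.

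Samples were grouped by antibody and dox as labelled. Overlap meant 1 bp. Regions were rebuilt from overlapping replicate peaks and kept when in at least 2 lists, which gave 13217 regions. Exact two-sided permutation tests were used for covered shares, checked on simulated data, with Python 3.11.15, numpy 2.4.6 and pysam 0.24.0. Windows, thresholds, list lengths and left-out replicates were varied. The members, gene lists and motifs were chosen with earlier results of these data known. From each pathway list up to 3 genes were named: the highest merged Dox+ and Dox- fold enrichment, then genes with an OCT4 peak or a listed row in gene order. Smad7, Hes1, Cdkn1a, Ets2 and Atf3 are named by the likeness rule, and Ski and Tcf12 were named after their values were seen, to complete a count.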

Additional observations from a re-analysis of the deposited data

How the results depend on the processing

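The difference in covered share kept its sign in 43 of the 51 alternatives over the 4 genes, and p ranged from 0.200 to 1.00 by exact permutation. This count includes alternatives that could not change the sign. The replicate block repeats the main difference. Leaving out Dox+ replicate 1, the lowest of its group, or Dox- replicate 2, the highest of its group, can only raise that difference. It turned to -0.489 percentage points at Id1 and -0.181 at Id4 within the gene span alone, to -1.36 at Id3 with peaks of a −log10 q-value of at least 2, and to -0.224 at Id2 with the strongest 420 peaks of each list. Divided by the share of the genome covered in the same list, the Id1 difference was -27.5 (Dox+ minus Dox-, as a ratio to the genome). With this scaling it was 1.01 at Id2, 35.0 at Id3 and 3.22 at Id4. Leaving out 1 replicate gave -1.68 to 14.2 at Id1, 1.83 to 12.0 at Id2, -4.33 to 12.7 at Id3 and 0.0618 to 2.48 at Id4. Causes were not tested. The strongest 420 peaks held none at Id1, so that alternative gave no value. The number of Id genes with a merged Dox- peak fell from 4 to 2 when peaks needed a −log10 q-value of at least 2, while the OCT4 count stayed 0 in each alternative. The methods state no pairing of replicates, so the numbers were not taken as pairs. Deviations from the group mean of same-numbered samples correlated at 0.76, 0.71 and -0.30. Samples with different numbers gave -0.77 to 0.66, so these correlations do not settle the pairing. With the replicate block the differences were 6.03, 6.18, 4.15 and 1.23 at Id1 to Id4, each with p = 0.500 by exact sign-flip permutation, where the smallest possible is 0.250. Low coverage and short replicate 1 lists limit what a missing peak can show.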
